A study of Mus musculus with 6 samples.

Results

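The genes of the hypoxia-inducible factors (HIF) and of the enzymes through which oxygen controls them were compared between IL-4-treated macrophages with a myeloid deletion of *Acly* and their controls. The group was set by gene name, with earlier results of these data known. It holds the HIF subunits *Hif1a*, *Epas1* and *Arnt*, the prolyl hydroxylases *Egln1*, *Egln2* and *Egln3*, the E3 ligase subunit *Vhl*, and the asparaginyl hydroxylase *Hif1an*. These are 8 of the 24445 genes with a row of counts, and all 8 were among the 12023 genes with enough counts to be tested.

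HIF is a transcription factor made of an oxygen-labile alpha subunit (HIF-1α from *Hif1a* or HIF-2α from *Epas1*) and the constitutive beta subunit from *Arnt*. When oxygen is available, the prolyl hydroxylases PHD2 (*Egln1*), PHD1 (*Egln2*) and PHD3 (*Egln3*) use oxygen and 2-oxoglutarate to hydroxylate the alpha subunits, which are then bound by the von Hippel-Lindau protein (*Vhl*) and degraded, while FIH (*Hif1an*) hydroxylates an asparagine that blocks co-activator binding. In macrophages this pathway is known for its control of glycolytic and angiogenic genes, *Egln1* and *Egln3* are themselves known HIF target genes, and because much of the regulation acts on protein stability, transcript levels describe only a part of it.

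Bone marrow-derived macrophages (BMDMs) came from female mice on a C57Bl/6J background whose *Acly* alleles carry loxP sites around exon 9 (Acly fl/fl), and their age is not given in the sources used here. AclyM-KO mice also carry Cre under the *Lyz2* promoter, which is active in myeloid cells, and Ctrl mice are littermates with the floxed alleles and without Cre (the labels call the groups KO and WT). All cells were differentiated for 7 days in L929-conditioned medium and then given IL-4, the cytokine that induces alternative activation, at 100 U/mL for 24 h, and each group has 3 RNA-seq libraries. The study's methods describe the libraries of a group as biological replicates, while a figure legend speaks of technical replicates from pooled mice. The p-values below therefore rest on the spread between libraries. If the legend holds, they do not cover differences between mice.

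*Acly*, the targeted gene, had 332, 321 and 350 CPM (counts scaled to library size) in Ctrl replicates 1 to 3 and 146, 134 and 136 CPM in AclyM-KO replicates 1 to 3, a log2 fold change of -1.27 (edgeR adjusted p = 5.23e-10), which checks the labels on counts over the whole transcript and not on the deleted exon alone. Each library held 12151975 to 15587283 counts on the rows used. *Lyz2*, whose promoter drives Cre, was also lower, from 6092 to 7121 CPM in Ctrl and from 4004 to 4222 CPM in AclyM-KO (log2 fold change -0.67, edgeR adjusted p = 5.79e-08). All 6 macrophage markers examined were detected, with a summed level of 7247 to 7561 CPM in Ctrl and 6946 to 7310 CPM in AclyM-KO. Within this list *Adgre1* rose, *Csf1r*, *Itgam* and *Mertk* fell, and *Mertk*, an efferocytosis receptor, moved most (log2 fold change -0.73). Markers of other cells were low. The 7 neutrophil markers summed to 7.67 to 9.73 CPM in Ctrl and to 13.8 to 14.4 CPM in AclyM-KO, with 5 of the 7 under 10 counts in every library and the other two, *S100a8* and *S100a9*, higher (log2 fold changes 0.85 and 0.59). The 4 mast cell and eosinophil markers summed to 3.18 to 4.71 and to 7.47 to 8.66 CPM, mainly through *Kit* (log2 fold change 1.26, edgeR adjusted p = 1.65e-04), and 2 of the 4 stayed under 10 counts. Dendritic cell markers (5 genes) summed to 1.69 to 3.68 CPM in Ctrl and 2.60 to 3.28 in AclyM-KO, and lymphoid markers (5 genes, *Ncr1* at 0) to 0.152 to 0.608 and to 0.206 to 0.579 CPM. Stromal and endothelial markers (5 genes) summed to 0.380 to 1.47 and to 1.16 to 1.65 CPM. The 3 erythroid genes were at 0 in every library. The part of these shifts in the results below was not tested, and in bulk RNA fewer cells of a type and less RNA per cell cannot be told apart.

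The changes went in both directions within the group (positive values are higher in AclyM-KO). *Epas1* and *Hif1an* rose, *Egln3*, *Egln1*, *Vhl* and *Hif1a* fell, and *Arnt* and *Egln2* did not pass the test. With an adjusted p under 0.05 in edgeR's quasi-likelihood test as the limit, 6 of the 8 genes changed, 2 up and 4 down, where 24.9% of all genes tested did so, 12.4% up and 12.6% down. When a log2 fold change beyond 0.58 was also required, *Epas1* was called higher and *Egln3* lower, where 5.55% of all genes tested were called (2.98% higher and 2.57% lower). The 3 values of each group did not overlap for 6 of the 8 genes, as for 40.2% of all genes tested. The 8 genes were chosen with earlier results of these data known, so these counts are a description. The median log2 fold change of the 8 genes was -0.092, beside a median of 0.0014 over all genes tested and a range from the 5th to the 95th percentile of -0.51 to 0.52. Only *Epas1* and *Egln3* lay outside that range, and the fold change of *Egln3* ranked 3 from the lowest among all genes tested.

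**Figure D1:**
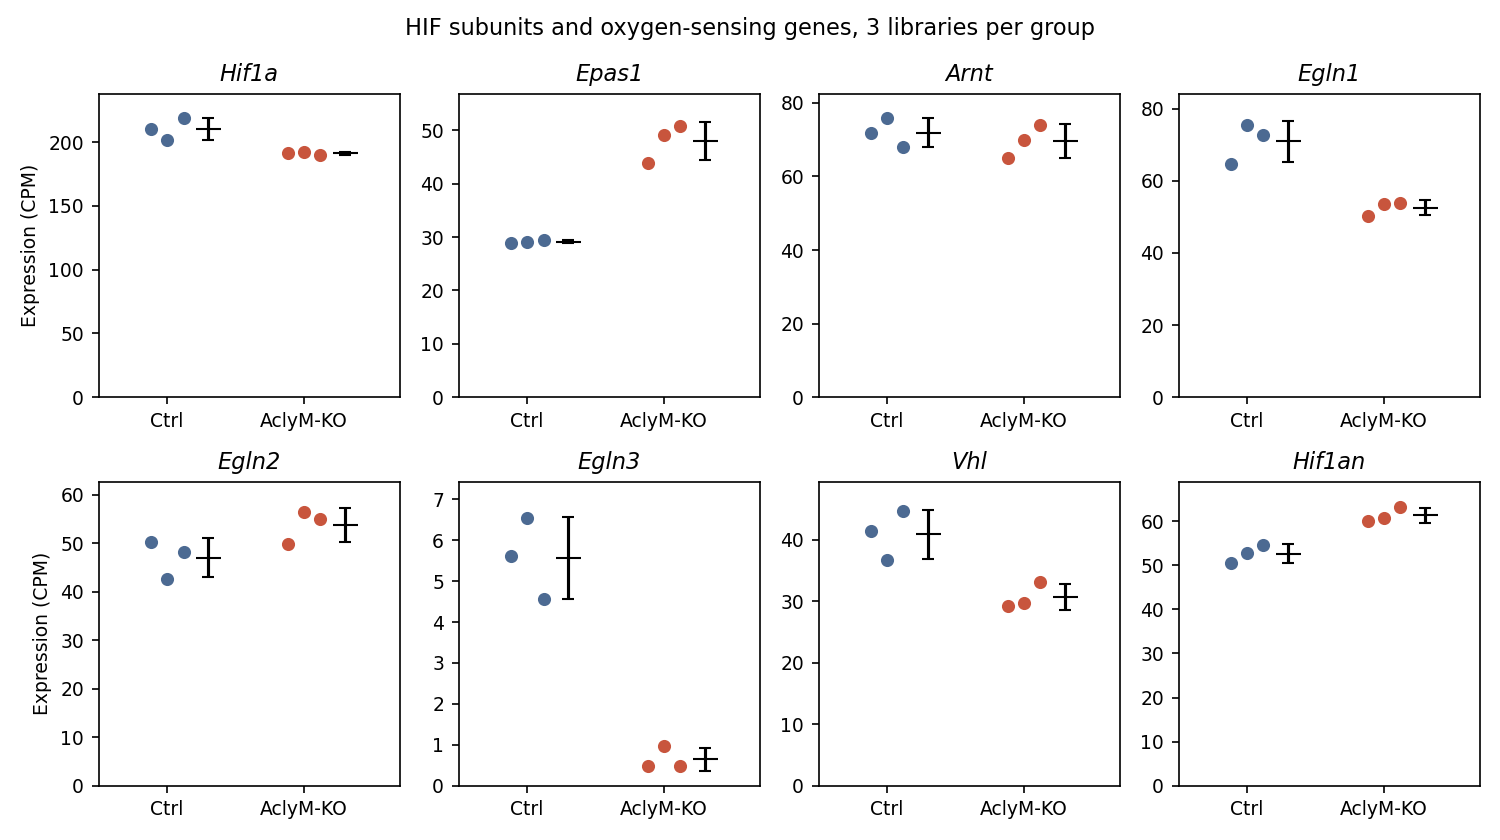
Expression of the 8 genes in CPM (y axis, linear, from 0) in each of the 3 Ctrl (blue) and 3 AclyM-KO (red) libraries, with the mean and SD in black. The groups separate without overlap in every panel except *Arnt* and *Egln2*, and *Egln3* drops from 4.55 to 6.54 CPM to below 1 CPM.

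*Egln3* encodes PHD3, the prolyl hydroxylase whose transcript responds most readily to HIF in many cell types. The gene spans 54178981 to 54203860 on chromosome 12 (minus strand, mouse build GRCm38), and its 2662-base transcript has 5 exons. The promoters of *Egln3* and *Egln2* are shown because these paralogs stand at opposite ends of the prolyl hydroxylase results: *Egln3* fell most, and *Egln2* is the one prolyl hydroxylase gene that did not fall. Each sequence is the 250 bases before the RefSeq start site (build GRCm38.p6, minus strand of the chromosome, written 5′ to 3′ along the gene, chr12:54203875-54204124 and chr7:27166803-27167052). Capitals mark matches to the core of the HIF response element, ACGTG or GCGTG, searched on both strands, so that CACGC in the printed strand is GCGTG on the other.

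Egln3: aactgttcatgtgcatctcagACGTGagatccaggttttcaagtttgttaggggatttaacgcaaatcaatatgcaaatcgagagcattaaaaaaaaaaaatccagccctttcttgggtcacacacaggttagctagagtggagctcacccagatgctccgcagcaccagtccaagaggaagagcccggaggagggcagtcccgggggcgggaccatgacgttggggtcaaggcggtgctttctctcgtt
Egln2: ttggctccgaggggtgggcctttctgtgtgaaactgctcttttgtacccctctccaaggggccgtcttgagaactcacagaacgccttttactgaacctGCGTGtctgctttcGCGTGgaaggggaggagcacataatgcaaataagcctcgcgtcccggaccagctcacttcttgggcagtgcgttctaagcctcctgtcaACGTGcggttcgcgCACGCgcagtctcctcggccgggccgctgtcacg

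The *Egln3* window held 1 match, to ACGTG, with its first base at -229 relative to the start site. RefSeq gives *Egln2* a pair of start sites, and the printed window, upstream of the outer one, held 4 matches, 1 ACGTG and 3 GCGTG, a number reached by 2.58% of the 32851 promoter windows of this length in the table. The window of the inner start site (chr7:27165729-27165978), not printed, held 1 match, to GCGTG. Promoters were found for 7 of the 8 genes (not for *Epas1*), and of their 8 windows 6 held either motif, as did 38.6% of all windows. The GC content of the 8 windows ran from 48.0% (inner *Egln2*) to 86.0% (*Egln1*), beside a median of 52.4% over all windows. The shares of all windows given here were not matched for GC content. *Vhl* and *Hif1an* had no match in their windows. A match of 5 letters describes the sequence and is not a measured binding site. Sequence outside the windows, introns included, was not searched, so the numbers of matches do not rank the genes by HIF binding.

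*Egln3* measured 5.61, 6.54 and 4.55 CPM in Ctrl and 0.478, 0.965 and 0.480 CPM in AclyM-KO. Every AclyM-KO library was below every Ctrl library by more than 3 CPM. The underlying counts were 83, 80 and 60 in Ctrl and 7, 15 and 7 in AclyM-KO, so the AclyM-KO level rests on few reads. The mean fell from 5.57 ± 0.995 CPM to 0.641 ± 0.281 CPM (n = 3 and 3, SD), leaving 11.5% of the Ctrl level. The log2 fold change was -3.09 (SE 0.288, 95% interval -3.70 to -2.47, edgeR adjusted p = 1.66e-06). Without each library in turn it lay between -3.51 and -2.91, and it was the only gene of the group that also passed a test against a minimum change of 0.58 (edgeR glmTreat adjusted p = 6.58e-05). For a single gene with 3 libraries against 3, the exact two-sided permutation test gave 0.10, the smallest p this design allows.

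*Egln1* encodes PHD2, regarded as the main oxygen sensor in normoxic cells (chromosome 8, 124908587 to 124949324, minus strand, 5 exons). It measured 64.7, 75.6 and 72.7 CPM in Ctrl and 50.1, 53.7 and 53.7 CPM in AclyM-KO. The lowest Ctrl library was more than 10 CPM above the highest AclyM-KO library. The mean fell from 71.0 ± 5.66 CPM to 52.5 ± 2.05 CPM (n = 3 and 3, SD), a log2 fold change of -0.43 (SE 0.0638, 95% interval -0.57 to -0.30, edgeR adjusted p = 1.495e-04). The call held under each of the 14 alternatives that tested for any change.

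*Egln2* encodes PHD1, a mainly nuclear prolyl hydroxylase (chromosome 7, 27158658 to 27166802, minus strand, 6 exons). It measured 50.2, 42.5 and 48.3 CPM in Ctrl and 49.7, 56.5 and 54.9 CPM in AclyM-KO. AclyM-KO replicate 1 fell inside the Ctrl range, and the other AclyM-KO libraries lay above it. The means were 47.0 ± 3.99 and 53.7 ± 3.53 CPM (SD, n = 3 each), with a log2 fold change of 0.19 (95% interval 0.039 to 0.34) that did not pass the test (edgeR adjusted p = 0.0629). The gene passed without AclyM-KO replicate 1 (edgeR adjusted p = 0.0459), without Ctrl replicate 1 (0.0366) and without a filter on low counts (0.0356). Only 11 of its exonic bases lie under a gene on the other strand, *Cyp2t4*, which had at most 2 counts in any library.

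With these changes the makeup of the prolyl hydroxylase transcripts shifted toward *Egln2*. Counts were divided by transcript length so that the 3 genes could be compared, and each was expressed as a share of their sum within a library. *Egln2* made up 54.2%, 46.2% and 51.1% of the sum in Ctrl and 62.6%, 63.7% and 63.3% in AclyM-KO. *Egln1* made up 41.0%, 48.2% and 45.1% in Ctrl and 37.0%, 35.5% and 36.3% in AclyM-KO. *Egln3* contributed 4.80%, 5.63% and 3.81% in Ctrl and 0.475%, 0.861% and 0.438% in AclyM-KO. None of the 3 shares overlapped between groups. In Ctrl the order of *Egln1* and *Egln2* differed between libraries, with *Egln1* ahead in replicate 2, whereas *Egln2* was ahead in all 3 AclyM-KO libraries. The mean share of *Egln2* rose by 12.65 percentage points, and those of *Egln1* and *Egln3* changed by -8.49 and -4.16 points (exact two-sided permutation p = 0.10 for each, the smallest possible). The 3 shares are parts of the same sum, so they depend on each other. They restate the changes of the 3 genes and are not separate results. The ratio of *Egln2* to *Egln1*, chosen after the values were seen, went from 1.14 ± 0.182 to 1.74 ± 0.0520 (SD, n = 3 each).

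**Figure D2:**
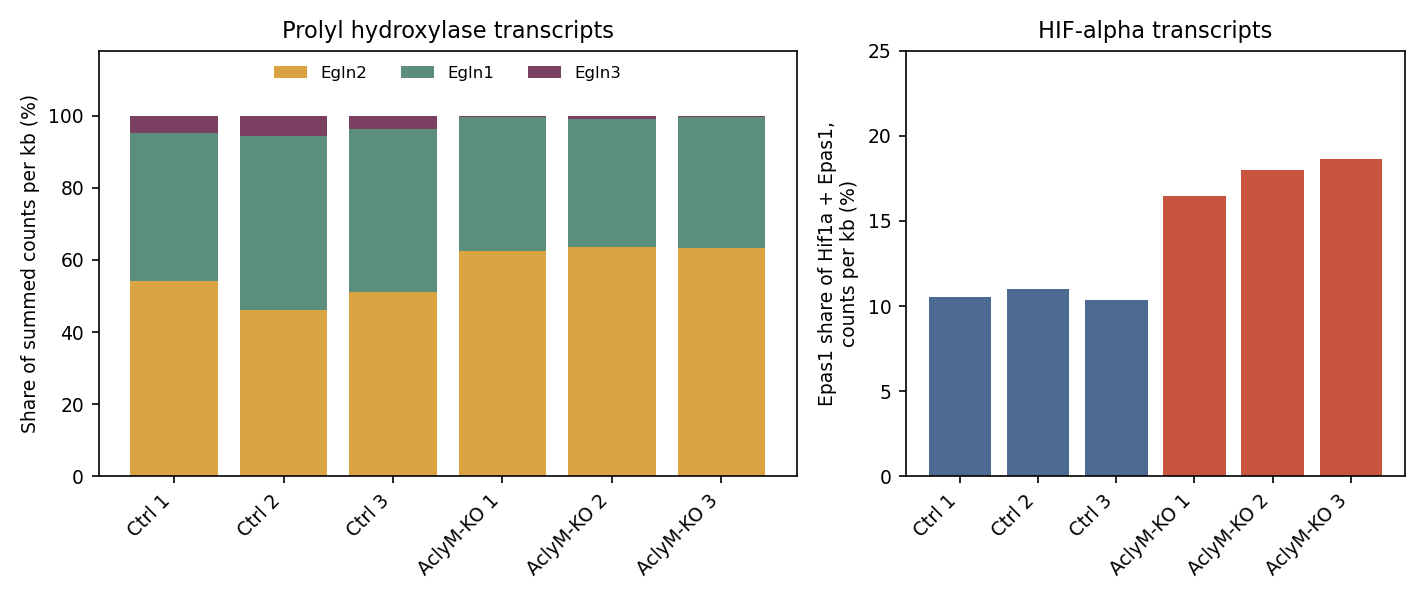
Left, share of each prolyl hydroxylase gene in their summed counts per kilobase (y axis, percent) for each of the 6 libraries. Right, share of *Epas1* in the sum of *Hif1a* and *Epas1* counts per kilobase (y axis, percent), where the AclyM-KO libraries (red) lie at 16.4% to 18.6% and the Ctrl libraries (blue) at 10.4% to 11.0%.

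*Hif1an* encodes FIH, the asparaginyl hydroxylase that limits the transactivation of HIF-alpha (chromosome 19, 44562850 to 44576274, plus strand, 8 exons). It measured 50.5, 52.8 and 54.7 CPM in Ctrl and 60.0, 60.9 and 63.2 CPM in AclyM-KO, with a gap of more than 5 CPM between the groups. The mean rose from 52.7 ± 2.13 CPM to 61.3 ± 1.66 CPM (n = 3 and 3, SD), a log2 fold change of 0.22 (SE 0.0560, 95% interval 0.10 to 0.34, edgeR adjusted p = 0.00948). The ratio of *Hif1an* to *Egln1* within a library combines the changes of both genes and is not a separate result. Per length, *Hif1an* stood at 0.453, 0.406 and 0.437 of *Egln1* in Ctrl and at 0.694, 0.658 and 0.682 in AclyM-KO, a ratio also chosen after the values were seen.

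*Vhl* encodes the substrate-recognition subunit of the ligase that ubiquitinates hydroxylated HIF-alpha (chromosome 6, 113623959 to 113631633, plus strand, 3 exons). It measured 41.4, 36.6 and 44.6 CPM in Ctrl and 29.3, 29.7 and 33.2 CPM in AclyM-KO, without overlap. The mean fell from 40.9 ± 4.01 CPM to 30.7 ± 2.15 CPM (n = 3 and 3, SD), a log2 fold change of -0.42 (SE 0.0814, 95% interval -0.59 to -0.24, edgeR adjusted p = 0.00161). The other 4 subunits of the ligase did not fall with it. *Rbx1*, the RING subunit that recruits the E2 enzyme, was higher by 0.20 on the log2 scale (edgeR adjusted p = 0.0422). Removing any of 5 of the 6 libraries ended this call (edgeR adjusted p 0.0746 to 0.134), and it held only without Ctrl replicate 1. The adaptors *Eloc* and *Elob* and the scaffold *Cul2*, which had the highest level of the 4, showed log2 fold changes of 0.14, -0.049 and -0.073 and did not pass.

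Among the HIF subunits, *Epas1*, which encodes HIF-2α (chromosome 17, 86753700 to 86833410, plus strand, 16 exons), was the gene with the clearest increase. It measured 28.9, 29.0 and 29.5 CPM in Ctrl and 43.9, 49.2 and 50.8 CPM in AclyM-KO. The Ctrl libraries lay within 1 CPM of each other, and the lowest AclyM-KO library was more than 14 CPM above them. The mean rose from 29.1 ± 0.348 CPM to 48.0 ± 3.58 CPM (n = 3 and 3, SD), 1.65 times the Ctrl level, with a log2 fold change of 0.72 (SE 0.0706, 95% interval 0.57 to 0.87, edgeR adjusted p = 2.98e-06). Its fold change ranked 305 from the highest among all genes tested. The interval includes 0.58, and *Epas1* did not pass the test against that minimum change (edgeR glmTreat adjusted p = 0.439).

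*Hif1a*, which encodes HIF-1α (chromosome 12, 73901375 to 73947530, plus strand, 15 exons), measured 210, 202 and 219 CPM in Ctrl and 191, 192 and 190 CPM in AclyM-KO. The groups did not overlap, although the gap between the nearest libraries was under 10 CPM. The mean fell from 210 ± 8.79 CPM to 191 ± 1.13 CPM (n = 3 and 3, SD), a log2 fold change of -0.14 (SE 0.0487, 95% interval -0.24 to -0.034) at the edge of the limit (edgeR adjusted p = 0.0498). The call was lost in 8 of the 14 alternatives, among them the removal of any library except Ctrl replicate 2 (edgeR adjusted p 0.0813 to 0.146), DESeq2 (0.0518) and a block on the replicate number (edgeR, 0.103), while the direction held in each. Exons of other annotated genes overlap *Hif1a* over 6.99% of its length on the opposite strand and 3.13% on the same strand. The sources used here do not say whether the counting separated their reads.

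*Arnt*, which encodes HIF-1β, the partner of both alpha subunits (chromosome 3, 95434388 to 95497240, plus strand, 22 exons), measured 71.8, 75.9 and 68.2 CPM in Ctrl and 65.0, 69.9 and 74.0 CPM in AclyM-KO. The groups overlapped. The means were 72.0 ± 3.88 and 69.6 ± 4.54 CPM (SD, n = 3 each), and the log2 fold change of -0.047 had a 95% interval of -0.18 to 0.082 (edgeR adjusted p = 0.622).

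**Figure D3:**
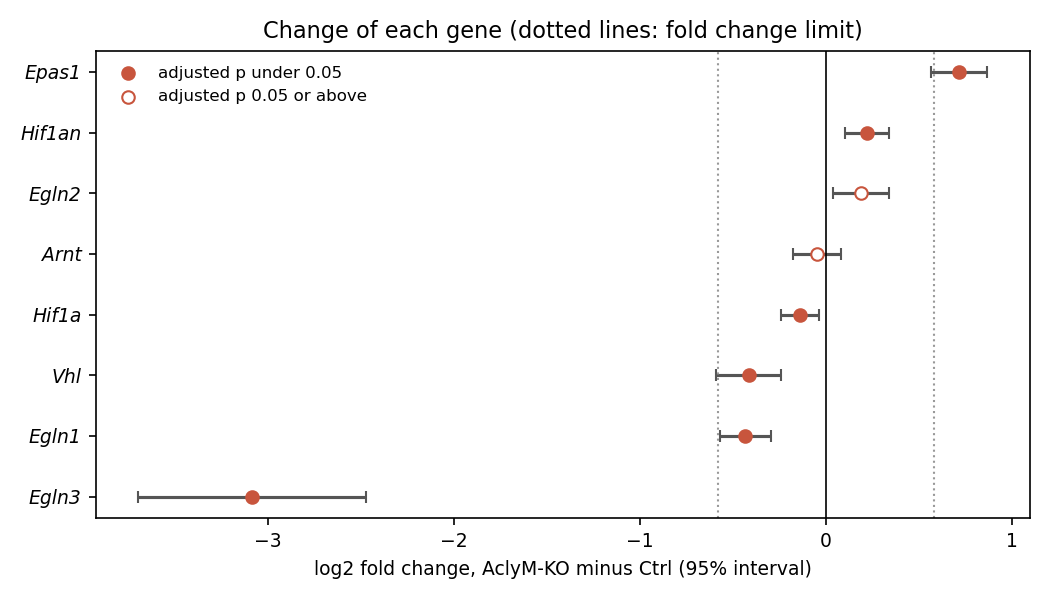
Log2 fold change of each gene in AclyM-KO relative to Ctrl (x axis) with its 95% interval, filled where the edgeR adjusted p was under 0.05. The interval of *Egln3* lies far below the dotted limit of -0.58, that of *Epas1* spans the limit of 0.58, and those of *Arnt* and *Hif1a* lie close to 0.

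On a per-length scale (CPM per kilobase of transcript), and with the shorter *Arnt* transcript, the order of mean levels was the same in both groups: *Hif1a*, *Arnt*, *Egln2*, *Egln1*, *Vhl*, *Hif1an*, *Epas1* and *Egln3*. *Hif1a* led with 44.5 ± 1.86 in Ctrl and 40.5 ± 0.238 in AclyM-KO (SD, n = 3 each), followed by *Arnt* with 26.7 and 25.8. *Egln2* had 22.3 and 25.5, *Egln1* 19.8 and 14.6, *Vhl* 14.6 and 11.0, and *Hif1an* 8.50 and 9.90. *Epas1* followed with 5.28 in Ctrl and 8.69 in AclyM-KO, and *Egln3* was last with 2.09 and 0.241. Neighbours in this order were separated in all libraries of a group, except that *Egln2* overlapped *Egln1* in Ctrl and *Arnt* in AclyM-KO. The place of *Arnt* rests on its shorter transcript, since 2 *Arnt* rows held identical counts and the longer, of 4325 bases, gives 16.6 and 16.1. With the longer row *Arnt* would stand below *Egln1* in Ctrl and above it in AclyM-KO, so the order would differ between the groups. Among the 11766 genes tested with a known length, the percentile of level went from 36.7 to 49.1 for *Epas1*, from 19.2 to 1.82 for *Egln3* and from 86.6 to 85.1 for *Hif1a*.

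Within each library *Epas1* made up 10.5%, 11.0% and 10.4% of the summed HIF-alpha transcripts per length in Ctrl and 16.4%, 18.0% and 18.6% in AclyM-KO. The mean share was 10.6% ± 0.331 in Ctrl and 17.7% ± 1.13 in AclyM-KO (SD, n = 3 each), a difference of 7.06 percentage points (exact two-sided permutation p = 0.10, the smallest possible), and *Hif1a* remained the main alpha transcript in every library. The share combines the changes of *Epas1* and *Hif1a* and is not a separate result. The sum of the 3 prolyl hydroxylases per length relative to the sum of *Hif1a* and *Epas1* was 0.883, 0.912 and 0.867 in Ctrl and 0.779, 0.849 and 0.834 in AclyM-KO. This ratio, chosen after the values were seen, was lower in each AclyM-KO library than in each Ctrl library, by 0.0668 on average, and its nearest libraries differed by less than the SD within either group.

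The third alpha subunit, *Hif3a*, had 0 counts in every library, which allows a level of up to 0.192 to 0.247 CPM (a limit of 3 counts, for counting error only). Of 6 other partners and co-activators tested, 1 rose and 1 fell (33.3%, beside 24.9% of all genes), with a median log2 fold change of -0.0061. *Cited2*, which competes with HIF-1α for p300 and CBP, rose by 0.27 on the log2 scale (edgeR adjusted p = 8.99e-04), and the co-activator *Ncoa2* fell by 0.25 (5.30e-03). *Ep300*, the most abundant of them, and *Ncoa1* showed log2 fold changes of -0.12 and -0.037 and did not pass. None of 12 genes known to act on the stability of HIF-alpha or of the prolyl hydroxylases passed in edgeR, beside 24.9% of all genes. At an unadjusted edgeR p under 0.05, 4 were higher and 2 lower, and the share of all genes at that limit is not given here. By adjusted p, 0 passed in DESeq2 and 1 in limma-voom. The 12 include the chaperone *Hsp90ab1* (log2 fold change 0.021), the scaffold protein *Rack1* (0.14, edgeR adjusted p = 0.0522), and *Siah2* and *Siah1a*, ligases that target PHD1 and PHD3 for degradation (0.29 and 0.42, edgeR adjusted p = 0.0626 and 0.0635). Of these, *Rack1* passed without Ctrl replicate 1 (0.0487) or Ctrl replicate 3 (0.0335), *Siah2* without Ctrl replicate 2 (0.0223), and *Siah1a* without AclyM-KO replicate 2 (0.0498) or Ctrl replicate 1 (0.0436), all by edgeR adjusted p.

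The hydroxylases of HIF belong to the dioxygenases that need oxygen, iron and 2-oxoglutarate or, like *Ado*, oxygen and iron. Of 30 other genes of this kind, 28 were tested, 1 rose and 9 fell, which is 35.7% beside the 24.9% of all genes, and the median log2 fold change was -0.13. The largest decreases were in the histone demethylases *Kdm6b*, from 29.0 to 15.1 CPM (log2 fold change -0.94, edgeR adjusted p = 1.31e-05), and *Kdm5b*, from 20.9 to 11.2 CPM (-0.89, 5.34e-06). The collagen prolyl hydroxylases *P4ha2* and *P4ha1* also fell, from 9.28 to 6.05 CPM and from 150 to 113 CPM (log2 fold changes -0.61 and -0.40, edgeR adjusted p = 0.00399 and 1.64e-04). *Plod1*, a collagen lysyl hydroxylase and the most abundant gene of the list, fell from 308 to 247 CPM (log2 fold change -0.32, edgeR adjusted p = 2.23e-04). *Asph*, an aspartyl hydroxylase, and the histone demethylase *Kdm3b* fell by 0.23 and 0.21 on the log2 scale (edgeR adjusted p = 0.00915 and 0.0139). The call on *Asph* was lost without AclyM-KO replicate 3 (0.0568), and that on *Kdm3b* without AclyM-KO replicate 1 (0.0641) or 2 (0.0705). The only increase, named after its value was seen, was in the ribosomal oxygenase *Riox1* (log2 fold change 0.37, edgeR adjusted p = 0.0321). It did not pass in DESeq2 (adjusted p = 0.0645) or, in edgeR, without AclyM-KO replicate 1 (0.0813), 2 (0.0692) or 3 (0.0942), or without Ctrl replicate 1 (0.0733) or 2 (0.103). Apart from *Egln3*, no gene of the HIF hydroxylases changed as much as *Kdm6b* or *Kdm5b*.

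Genes that HIF is known to induce were measured in the same libraries, from a list of 23 of which 19 were tested. None rose and 15 fell in edgeR (78.9%, beside 12.6% of all genes tested), 11 of them beyond the fold limit (2.57% of all genes), and the median log2 fold change was -0.72. No gene of the list was higher at an unadjusted p under 0.05, and DESeq2 and limma-voom each called 0 higher and 15 lower. The list was drawn up with its direction in these libraries already known, so the count is a description. *Ankrd37* fell from 13.9 to 3.36 CPM (log2 fold change -2.04), *Hilpda*, a lipid droplet protein, from 23.1 to 7.76 (-1.56), and the mitophagy receptor *Bnip3* from 19.9 to 8.29 (-1.26). The adenylate kinase *Ak4* and the lactate exporter *Slc16a3* fell by 1.50 and 1.39 on the log2 scale. *Vegfa*, the angiogenic growth factor, fell from 120 to 54.1 CPM (log2 fold change -1.14). Smaller decreases were seen in the glycolytic enzymes *Pgk1* (-0.86) and *Ldha* (-0.59, the most abundant gene of the list), the glucose transporter *Slc2a1* (-0.72), the pyruvate dehydrogenase kinase *Pdk1* (-0.75) and the MYC antagonist *Mxi1* (-0.77). For these 11 genes the edgeR adjusted p lay between 9.22e-09 and 1.20e-04. *Ero1a*, *Bhlhe40* and *Pfkfb4* fell by 0.35, 0.33 and 0.22 on the log2 scale, within the fold limit. The 4 tested genes that did not pass, named after their values were seen, were *Car9* (log2 fold change 0.036), *Ddit4* (0.15), *Higd1a* (-0.046) and *Ndrg1* (-0.20, edgeR adjusted p = 0.0645). The log2 fold change of *Egln3* was below that of every gene of this list, while that of *Egln1* was smaller in size than the list's median.

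**Figure D4:**
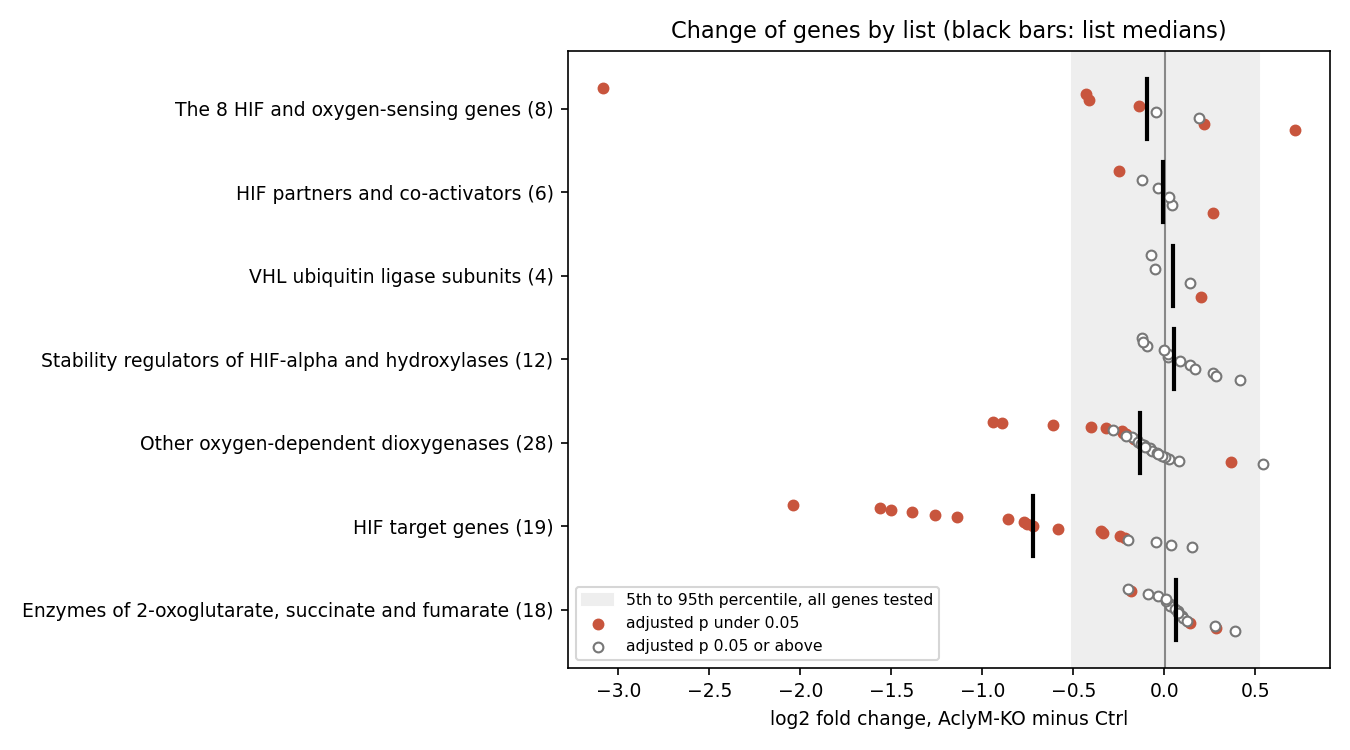
Log2 fold change in AclyM-KO relative to Ctrl (x axis) for each tested gene of the 8 HIF and oxygen-sensing genes and of 6 pathway lists (rows, number of genes in parentheses), filled where the edgeR adjusted p was under 0.05, with list medians as black bars and the 5th to 95th percentile of all genes tested shaded. The HIF target genes extend to -2.04 with their median at -0.72, *Egln3* lies alone at -3.09, and the medians of the other lists lie between -0.13 and 0.067.

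The cosubstrate 2-oxoglutarate and the competing products succinate and fumarate are made and used by enzymes of the tricarboxylic acid cycle and its branches. Of 18 such genes, all tested, 2 rose and 1 fell (16.7%, beside 24.9% of all genes), with a median log2 fold change of 0.067 and none beyond the fold limit. *Glud1*, which forms 2-oxoglutarate from glutamate, rose from 287 to 349 CPM (log2 fold change 0.28, edgeR adjusted p = 2.85e-04). *Sdha*, the catalytic subunit of succinate dehydrogenase, was higher by 0.14 (edgeR adjusted p = 0.0400) and its membrane anchor *Sdhd* lower by 0.18 (0.0330). Both of these calls were lost on leaving out any of 5 of the 6 libraries (edgeR adjusted p 0.0607 to 0.142), and they held only without Ctrl replicate 1 for *Sdha* and without Ctrl replicate 2 for *Sdhd*. *Idh1*, the most abundant of the list, had a log2 fold change of 0.097 and did not pass (edgeR adjusted p = 0.212).

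The genes whose levels followed those of *Epas1* and *Egln3* most closely over the 6 libraries were listed by Pearson's r of log2 CPM, a description in which the genotype separates the points. For *Epas1* these were *Slbp* (r = 0.9991), *Smad3* (0.9985), *Acss2* (0.9984), *Nqo1* (0.9978) and *Nfix* (0.9975), and 417 genes had r above 0.95. *Acss2*, the cytosolic enzyme that makes acetyl-CoA from acetate, rose from 17.0 to 33.4 CPM (log2 fold change 0.97, edgeR adjusted p = 6.16e-07). For *Egln3* they were *Pde8b* (0.9969), *Prr15* (0.996), *Tgs1* (0.996), *Gm14023* (0.9954) and *Cryzl2* (0.9931), and 331 genes had r above 0.95. Their fold changes, from -1.05 to -0.30 on the log2 scale, were all smaller in size than that of *Egln3*.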

How the data were processed

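RNA of IL-4-treated BMDMs from AclyM-KO and Ctrl mice was analysed, 3 libraries per group. Per the labels, the authors used CASAVA 1.8.2 and STAR 2.5.2b with build mm10, and they deposited unnormalized counts per RefSeq transcript, while the counting program is not given in the sources used here. All columns of the 35745-row table were used. Rows were paired with genes through the RefSeq table for GRCm38.p6 (35440 rows) and GENCODE M21 (188 rows), and neither library sizes nor tests include the 117 rows without a gene (0.370% to 1.38% of a library's counts). Because isoforms share reads, the row with the highest total was kept for each gene, a choice made once the file was seen, as the design expected 1 row per gene.

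The main test was edgeR's quasi-likelihood test (edgeR 4.0.16, R 4.3.3), with filterByExpr and TMM (glmQLFit and glmQLFTest on genotype, with Benjamini-Hochberg adjustment over the 12023 genes tested). The common biological coefficient of variation was 0.0588, and TMM factors lay between 0.990 and 1.008. CPM uses TMM-scaled library sizes. Transcript lengths come from the row used. Intervals are 95%, and permutation tests are exact and two-sided. Alternatives were DESeq2 1.42.0 (the tool of the study), limma-voom (limma 3.58.1), RLE scaling, library totals only, no filter, CPM above 1 in at least 3 libraries, summed rows, glmTreat, a replicate block and the removal of each library. The procedure was also run on simulated independent counts, in which far fewer genes were changed than were called here. Its outcome is not given, so no result rests on it.

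The genes and lists were chosen with earlier results of these data known. Besides the 8 genes, *Acly* and *Lyz2*, the rule for named genes takes from each list the genes past both limits, the most abundant gene and up to 3 more with the smallest adjusted p, and for *Epas1* and *Egln3* the 5 genes with the highest correlation. Replicate numbers were not taken to pair libraries: deviations of same-numbered libraries correlated at -0.0651, 0.0498 and -0.0314. Within groups, libraries differed beyond counting noise (chi-square per gene 2.32 to 7.46). Promoters and motifs come from RefSeq on GRCm38.p6, and gene positions from GENCODE M21 on GRCm38. Naive BMDMs and protein levels were not analysed here.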

Additional observations from a re-analysis of the deposited data

How the results depend on the processing

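*Epas1*, *Egln1*, *Egln3*, *Vhl* and *Hif1an* kept their direction and an adjusted p under 0.05 in edgeR and in the 14 alternatives that test for any change, with log2 fold changes of 0.68 to 0.78, -0.50 to -0.39, -3.51 to -2.91, -0.49 to -0.35 and 0.19 to 0.24. *Arnt* passed in none, and its log2 fold change ran from -0.093 to 3.67e-04 without each library, turning positive without AclyM-KO replicate 1. Against a minimum change (glmTreat), 77 genes were higher and 41 lower in place of 358 and 309, with 0 of the 8 genes higher in place of 1 and 6 HIF target genes lower in place of 11. With the replicate block, 1315 genes were higher and 1329 lower, and of the 8 genes 2 were higher and 3 lower, because *Hif1a* was lost (edgeR adjusted p = 0.103). Leaving out each library gave 1002 to 1512 higher and 972 to 1548 lower genes, the lowest of the latter without AclyM-KO replicate 2. The VHL ligase subunits had 0 higher genes with DESeq2, library totals only, summed rows or the block, and 0 to 1 without each library. Other dioxygenases had 0 higher (*Riox1* was lost) with DESeq2 and 0 to 1 without each library. The stability regulators had 1 higher with limma-voom, 3 without a filter and 0 to 2 without each library, and 1 lower with library totals only and 0 to 1 without each library. Enzymes of 2-oxoglutarate, succinate and fumarate had 1 higher with library totals only, without a filter, with summed rows or with the block, and 1 to 3 without each library, and 2 were lower with library totals only or without a filter, 0 with summed rows, and 0 to 2 without each library. The cause was not tested. The changes of the transcript shares kept their sign without each library: -10.4 to -6.79 points for *Egln1*, 10.5 to 14.5 for *Egln2*, -4.62 to -3.71 for *Egln3* and 6.59 to 7.69 for *Epas1*. Depth limits *Egln3* most, with 7 to 15 counts in the AclyM-KO libraries.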

Other observations

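The transcript rows of a gene carried no information on isoforms here. The 3 rows of *Hif1a* differed by at most 1 count in any library, and the 2 rows of *Arnt* were identical in all 6 libraries, so that a shift between isoforms of either gene could not be seen. The other 6 genes had 1 row each.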
